A study of Mus musculus with 2 samples.

Results

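Portal and arterial large-vessel endothelial cells of the mouse liver were found by a fixed rule on the unique molecular identifier (UMI) counts of single barcodes, which gave 164 barcodes in a library from cirrhotic mice and 38 in a library from control mice, 202 of 13969 deposited barcodes in all. Members were selected on the counts of the genes named here. A barcode was kept with 500 or more UMIs, 300 or more genes and less than 20% of UMIs from mitochondrial genes. It needed at least 5 UMIs of the endothelial genes Pecam1, Cdh5, Egfl7 and Ptprb together. The genes Stab1, Stab2, Clec4g and Dnase1l3 of liver sinusoidal endothelial cells (LSECs) had to stay under 0.3% of its UMIs, complement C1q genes under 0.2% and the hepatocyte genes Alb, Apoa1, Apoa2 and Fabp1 under 0.5%. It also needed at least 3 UMIs of Gja5, Nrg1, Adgrg6 and Vegfc together, and no fewer than of the central vein genes Rspo3, Wnt9b, Lhx6 and Kcnh1. The levels of these genes chose the cells and are given as a description only.

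The study made 1 droplet library of sorted liver endothelial cells per group. The cirrhosis group were C57BL/6 mice aged 16 weeks of genotype Cdh5-Cre+, mTmG +/+, in which cirrhosis had been induced by 12 weeks of inhaled carbon tetrachloride, a solvent that injures hepatocytes. The control group had the same strain, age and genotype, so both carried a Cre recombinase under the Cdh5 promoter, which is active in endothelium, and the mTmG reporter. Cells with this reporter change from red to green fluorescence once Cre has acted. Livers of 3 mice were pooled in each library, so animals cannot be told apart, and the values compare 1 pool with 1 pool with no test. Intervals are at the 95% level and cover counting error only.

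Blood enters the liver lobule through branches of the portal vein and the hepatic artery, which run together in the portal tract, and leaves through the central vein after passing the sinusoids. The sinusoids have a fenestrated endothelium rich in scavenger receptors. The larger vessels have a continuous endothelium on a basement membrane, with von Willebrand factor stores, and arteries add an elastic wall. Among the genes of the rule, Gja5 encodes connexin 40, a gap junction protein of arterial endothelium, and Nrg1 encodes neuregulin, a ligand of ErbB receptors. Adgrg6 is an adhesion receptor and Vegfc a growth factor that acts on lymphatic endothelium.

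The cells matched their label in genes of large vessels that the rule did not use, although such genes can follow from the choice of the cells and are a description. Levels are in CPM, the UMIs of a gene summed over the cells of 1 class in 1 library and scaled to a fixed total, so genes are not corrected for length and levels are compared within a gene. Von Willebrand factor, Vwf (chr6:125546774-125686679, GRCm38), stood at 1194 CPM in cirrhosis and 688 CPM in control large-vessel cells, against 82.9 and 22.4 CPM in cells above the limit for LSEC genes, called LSEC-gated here. The rule genes themselves were at 294 CPM in cirrhosis and 249 CPM in control for Gja5 (chr3:96904693-97077416) and at 178 CPM in cirrhosis and 282 CPM in control for Nrg1 (chr8:31814551-32884029). Adgrg6 (chr10:14402583-14545659) was at 396 CPM in cirrhosis and 502 CPM in control, and Vegfc (chr8:54077606-54187096) at 319 CPM in cirrhosis and 263 CPM in control. In LSEC-gated cells these 4 genes lay between 3.33 CPM for Nrg1 and 34.4 CPM for Adgrg6, both in cirrhosis. In barcodes of T or NK cells, which should lack them, Gja5, Nrg1, Adgrg6 and Vwf had no UMI in either library, and Vegfc had one in 1 of 68 cirrhosis and 0 of 65 control barcodes. These barcodes were chosen with no UMI of the 4 endothelial genes, which in part fixes this background.

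The 12 genes that stood furthest above LSEC-gated cells in both libraries, rule genes left out, were largely those of vessel wall matrix and signalling. In large-vessel cells over LSEC-gated cells, 5.58% of 4233 genes were over 2-fold higher and 5.76% over 2-fold lower in cirrhosis, and 8.97% and 11% of 4491 genes in control. Fbln2, the elastic fibre protein fibulin-2, was at 556 CPM in cirrhosis and 460.2 CPM in control large-vessel cells, against 18.4 and 5.73 CPM in LSEC-gated cells. Eln, elastin, was at 150.1 CPM in cirrhosis and 204 CPM in control large-vessel cells, against 4.65 and 5.03 CPM. Fbln5, fibulin-5, which helps to assemble elastic fibres, was 40.2-fold and 44.8-fold above the LSEC-gated cells of the cirrhosis and control libraries, and Col8a1, a short-chain collagen of vessel walls, 89.1-fold and 238-fold. Mgp, matrix Gla protein, an inhibitor of calcification, was 40.3-fold and 83.3-fold above. Among surface proteins, Sdc1, the proteoglycan syndecan-1, was 38.8-fold and 52-fold above LSEC-gated cells, and Cd200, a ligand that restrains myeloid cells, 30.9-fold and 55.1-fold. Npr3, the clearance receptor for natriuretic peptides, was 41.6-fold and 52.9-fold above. Igfbp3 and Thsd7a, a binding protein for insulin-like growth factors and a membrane protein with thrombospondin repeats, were 45.9-fold and 29.5-fold, and 28.3-fold and 45.3-fold. However, Igfbp3 had a UMI in only 19 of 164 cirrhosis and 5 of 38 control members. In control, 1 barcode held 40 of its UMIs, which were most of them. Ehd2, which stabilizes caveolae, was 23.8-fold and 57.9-fold above. Cyp1a1, a target of the aryl hydrocarbon receptor, was 552-fold and 107-fold above, the first value against only 0.124 CPM in LSEC-gated cells. Endothelial cells low in LSEC genes that carried the central vein genes instead, 300 in cirrhosis and 17 in control, shared part of this pattern. They held Fbln2 at 275 and 342 CPM, Eln at 59.1 and 304 CPM and Vwf at 351 and 1557 CPM, so Vwf alone did not mark the portal and arterial cells. They held Col8a1 at 1.06 and 0 CPM and Npr3 at 0.847 and 4.28 CPM, close to the LSEC-gated level.

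**Figure D1:**
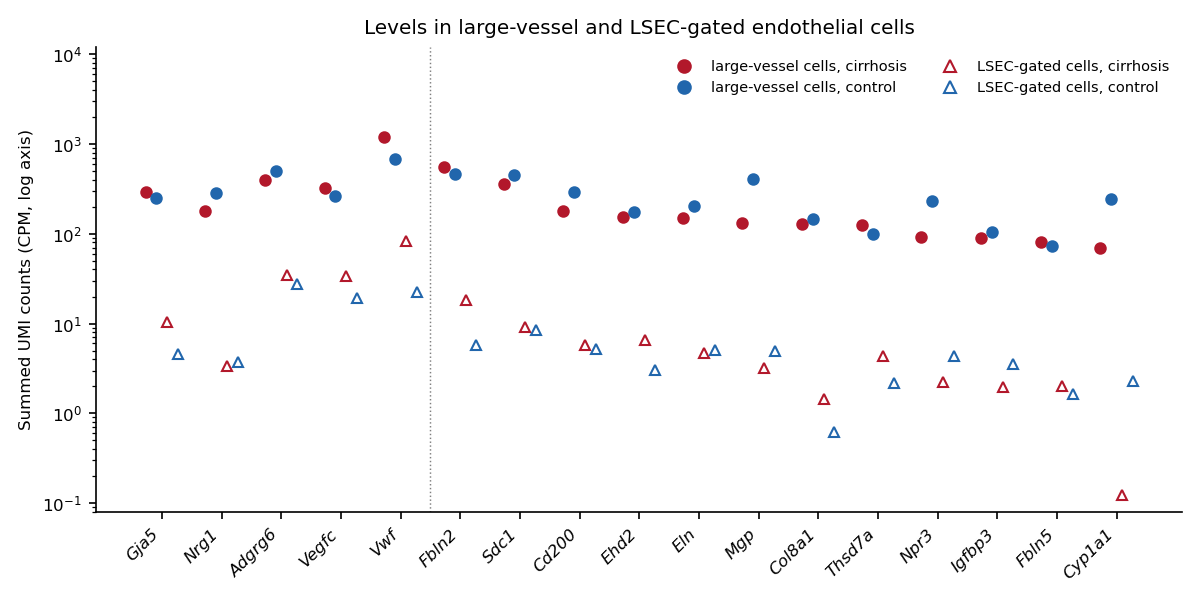
Summed UMI counts in CPM (log axis) of the 5 given markers (left of the dotted line) and of the 12 genes furthest above LSEC-gated cells, in large-vessel cells (filled circles) and LSEC-gated cells (open triangles) of the cirrhosis (red) and control (blue) library. Every circle lies above both triangles of its gene, and Mgp, Npr3 and Cyp1a1 have the widest gaps between the libraries among the 12 genes, with cirrhosis lower.

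Members varied in which markers they held. All 4 rule genes had a UMI in 60 of 164 cirrhosis and 15 of 38 control cells, 3 of them in 60 and 14, 2 of them in 37 and 7, and only 1 in 7 and 2 cells. Vwf ranged from 0 to 96 UMIs per cell in cirrhosis with a median of 14.5, and from 0 to 29 in control with a median of 6. It had no UMI in 12 cirrhosis and 10 control cells, or in 7 of 128 and 3 of 28 without barcodes that also held markers of other cell types. To compare shares at equal depth, each cell was thinned to 3000 UMIs, which left out 4 cirrhosis and 2 control members. A Vwf UMI was then seen in 86.2% of cirrhosis members (138 of 160, exact Clopper-Pearson interval 79.9% to 91.2%) and in 66.7% of control members (24 of 36, 49% to 81.4%), or 92.7% and 73.7% unthinned. An Nrg1 UMI was seen in 31.9% (24.7% to 39.7%) and 55.6% (38.1% to 72.1%), or 53.7% and 63.2% unthinned. The same genes were seen in none of 65 cirrhosis and 61 control T or NK barcodes at this depth, which allows a share of up to 4.62% and 4.92% by the limit of 3 counts, or 5.52% and 5.87% by the exact interval. The median depth of these barcodes was 5362.5 and 5951 UMIs, against 10740.5 and 8924.5 UMIs in members.

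**Figure D2:**
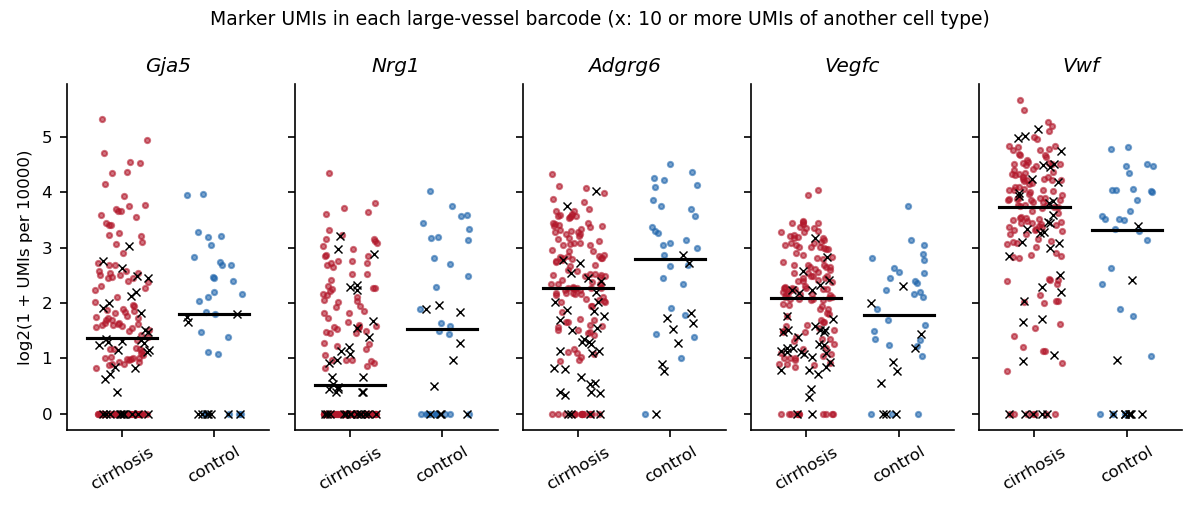
UMIs of each marker per 10000 UMIs on a log2(1 + x) axis in every large-vessel barcode, with cirrhosis left of control and the median as a bar. Crosses are barcodes with 10 or more UMIs of another cell type's markers, 36 in cirrhosis and 10 in control. Zeros occur for every marker, and the Nrg1 median is lower in cirrhosis while the Vwf median is higher.

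Part of the members also held transcripts of other cells. Markers of 10 other cell types were summed per barcode, and 36 of 164 cirrhosis and 10 of 38 control members had 10 or more UMIs of at least 1 of these lists. These barcodes, called carriers here, were deep, with medians of 22090.5 and 19378 UMIs against 10034.5 and 7869.5 UMIs in the others. The limit of 10 UMIs does not scale with depth, so deep barcodes reach it more easily and their depth follows in part from it. Carriers held 38.7% and 47.9% of all member UMIs. Kupffer cell or macrophage markers were carried by 20 and 4 members, with a summed level of 435 and 493 CPM. Without the carriers it was 119 and 76.6 CPM, against 438 and 287 CPM in LSEC-gated cells. Cholangiocyte markers were carried by 8 and 5 members, with a summed level of 836 and 3710 CPM over all members and 28.2 and 31.6 CPM without carriers. T or NK markers were carried by 10 and 1, B cell markers by 9 and 2, neutrophil or monocyte markers by 8 and 1, and lymphatic markers by 4 and 2. Stellate cell or fibroblast markers were carried by 2 and 2, smooth muscle markers by 1 and 0 and mesothelial markers by 0 and 1 members. Acta2, Myh11 and Cnn1, the contractile genes of smooth muscle, had no UMI in control members. Summed hepatocyte markers, for which no carriers were set, were at 1967 and 2062 CPM over all members and 1222 and 1055 CPM without carriers, against 1338 and 949 CPM in LSEC-gated cells, and 60 of 164 and 12 of 38 members had 10 or more of their UMIs. The part of these transcripts in each result was not tested. Values without carriers stand beside many of the results that changed direction or fell under 2-fold without them, and beside some others. Scoring against simulated doublets removed 8 cirrhosis and 0 control members, all of them carriers, and no member barcode was among the 17 barcodes that the libraries shared.

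Large-vessel cells were relatively more frequent in cirrhosis. They were 3.76% of its 4364 endothelial barcodes (3.21% to 4.37%) and 0.980% of the 3876 in control (0.695% to 1.34%), or 1.97% (1.68% to 2.29%) and 0.674% (0.477% to 0.923%) of all barcodes. Without carriers the shares of endothelial barcodes were 2.93% and 0.722%. Among endothelial barcodes under the limit for LSEC genes the order turned, with 25% of 656 in cirrhosis and 28.8% of 132 in control, and these intervals overlap (21.7% to 28.5% and 21.2% to 37.3%). The gap between the shares depended on the gate on LSEC genes. With no such gate, the same rule found 467 and 213 barcodes, 10.7% and 5.50% of endothelial barcodes. Summed LSEC genes were themselves lower in LSEC-gated cells of the cirrhosis library, with Stab2 at 1566 CPM in cirrhosis and 2128 CPM in control and Dnase1l3 at 2021 and 3369 CPM. The part of this difference in the shares was not tested. With every barcode thinned to 3000 UMIs before the rule was applied, 98 of 4103 endothelial barcodes in cirrhosis and 21 of 3533 in control passed, 2.39% and 0.594%.

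The thresholds cut through a continuum. Members with LSEC genes at 0.2% to 0.3% of UMIs numbered 55 in cirrhosis and 17 in control, and 47 and 14 barcodes failed with 0.3% to 0.4%. Vwf was at 896 and 671 CPM just inside, against 668 and 589 CPM just outside, and Ltbp4, a binding protein of latent TGF-beta, at 608 and 1183 CPM against 621 and 1082 CPM. At the limit of 3 UMIs of the rule genes, 7 and 2 barcodes lay just inside and 16 and 3 just outside with 2 UMIs, with Vwf at 324 and 790 CPM inside and 134 and 97.0 CPM outside.

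The comparison of cirrhosis with control asked how the portal and arterial endothelium differed after carbon tetrachloride. Of 3816 genes with a mean of at least 50 CPM, 82 were over 2-fold higher in cirrhosis (2.15%) and 99 over 2-fold lower (2.59%), with a median log2 ratio of 0.01 over the 7171 genes at 20 CPM or more. Without carriers 111 of 3798 genes were over 2-fold higher (2.92%) and 129 lower (3.4%). Part of the interferon genes, the Ly6 family gene Ly6c1 and the type IV collagen genes Col4a1 and Col4a2 were higher, while immediate-early genes, Edn1 and Npr3 were lower. Log2 ratios of cirrhosis over control stand in brackets with their intervals. The highest ratios among genes at 50 CPM belonged to Rsad2, an antiviral enzyme also called viperin, with 203 UMIs in 60 cirrhosis cells against 4 UMIs in 4 control cells, at 94.9 CPM in cirrhosis and 9.39 CPM in control (3.34, 1.96 to 5.23). Pi16, a peptidase inhibitor, was at 265 CPM in cirrhosis and 28.2 CPM in control (3.23, 2.42 to 4.20), in 113 and 6 cells. Rflnb, refilin B, which binds filamin, was at 241 CPM in cirrhosis and 32.9 CPM in control, with 16.4 and 3.92 CPM in LSEC-gated cells. The next were Armcx4 (log2 2.44), Dbn1, the actin-binding protein drebrin (2.39), Ly6c1 (2.38), Akap12, a scaffold for protein kinase A (2.25), Ifit3 (2.16), Ccl5 (2.02) and Zdhhc20, a palmitoyl transferase (1.79). All but Ccl5 were also over 2-fold higher without carriers. Ccl5, a chemokine of T and NK cells, was at 152 CPM in cirrhosis and 37.6 CPM in control, with 81.2% of its control UMIs in 1 barcode, and without carriers at 7.63 and 4.51 CPM. The summed T or NK markers were at 128 and 89.2 CPM in all members and at 7.63 and 0 CPM without carriers.

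Most of the lowest ratios came from single barcodes. Gas1, a growth arrest protein, Slpi, a protease inhibitor, the complement genes C4b and C3, and Dcn, decorin, had log2 ratios from -7.37 to -3.01, but 1 control barcode each held 98.5%, 97.9%, 97.5%, 91.7% and 88.9% of the control UMIs. Without carriers Slpi was at 0.763 CPM in cirrhosis with no UMI in control, Dcn at 11.4 and 18 CPM, and C3 was higher in cirrhosis, at 32.1 and 4.51 CPM (log2 2.83, 0.27 to 8.17, with 1 control UMI). Ccl21a, the lymphatic chemokine, had all 94 control UMIs in 1 barcode, and the summed lymphatic markers were at 91.2 and 434 CPM, or 3.05 and 0 CPM without carriers. Pigr, which carries immunoglobulin across epithelia, and Ces1d, a carboxylesterase, at -3.65 and -2.95, had 94.5% and 98.1% of their control UMIs in carriers. Fmo2, a monooxygenase, at 24.3 CPM in cirrhosis and 298 CPM in control (log2 -3.62), was lower without carriers too, at 2.29 and 158 CPM. Gm26802, a transcript beside Fosb, was at 22.9 CPM in cirrhosis and 340.5 CPM in control (-3.89, -4.39 to -3.42), with UMIs in 20 of 164 and 22 of 38 cells, and at 25.9 and 482 CPM without carriers. The strand that was counted is not given in the sources used here.

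Genes of arterial identity differed in both directions between the libraries. Of 18 listed, 15 had a mean of at least 20 CPM and are called measured, as in the other lists. Of these, 2 were over 2-fold higher and 2 over 2-fold lower, where 3.22% and 3.97% of all 7171 genes at that level were, and the median was 0.23 (0.11 without carriers). Gja4, connexin 37, the partner of connexin 40, was at 371 CPM in cirrhosis and 216 CPM in control (0.78, 0.47 to 1.11). Sox17, a transcription factor of arterial specification, was at 314 CPM in cirrhosis and 159.7 CPM in control (0.98, 0.62 to 1.36). The Notch ligands Jag1 and Dll4 were at 151 CPM in cirrhosis and 195 CPM in control, and at 176 CPM in cirrhosis and 150.3 CPM in control, and Efnb2, the arterial ephrin, at 209 CPM in cirrhosis and 190.2 CPM in control. Without carriers the log2 ratios of Dll4 and Efnb2 were -0.07 and -0.10. Hey1, a Notch target, was at only 36.9 CPM in cirrhosis and 9.39 CPM in control from 79 and 4 UMIs, and Sema3g, a secreted semaphorin of arteries, at 31.8 CPM in cirrhosis and 11.7 CPM in control from 68 and 5 UMIs, with a log2 ratio of 0.95 without carriers. Lower in cirrhosis were Bmx, an arterial kinase, at 22.9 CPM in cirrhosis and 54 CPM in control, and Cxcr4, the receptor of Cxcl12, at 12.6 CPM in cirrhosis and 32.9 CPM in control. Gja5 belongs to the list and to the rule.

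Portal and periportal genes had no member over 2-fold in either direction among 9 measured, with a median of 0.14 and of -0.10 without carriers, where 1, Adam23, was over 2-fold higher at log2 1.11. Ntn4, the laminin-related netrin-4, was at 466 CPM in cirrhosis and 730.3 CPM in control (-0.65, -0.83 to -0.46). Efnb1, an ephrin ligand, was at 939.9 CPM in cirrhosis and 622 CPM in control (0.60, 0.41 to 0.79), and Adam23, an integrin-binding member of the ADAM family, at 219 CPM in cirrhosis and 127 CPM in control (0.79, 0.38 to 1.22). Ltbp4 was at 693 CPM in cirrhosis and 822 CPM in control (-0.25, -0.42 to -0.07), while in LSEC-gated cells it was at 169 and 367 CPM. The 11 measured members of the Notch list included 1 over 2-fold higher, Hey1, with a median of 0.23. The list of ephrins, semaphorins and guidance genes had 1 higher, Sema3g, and 2 lower of 13, with a median of 0.14 (-0.11 without carriers, with none over 2-fold higher). The lower ones were Epha4, an ephrin receptor, at 13.6 CPM in cirrhosis and 32.9 CPM in control, and Sema3c, at 6.08 CPM in cirrhosis and 35.2 CPM in control with no UMI in either library without carriers.

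Vasoactive genes split by gene, with 2 of 10 measured over 2-fold lower, none over 2-fold higher and a median of 0.02 (-0.31 without carriers). Edn1 (chr13:42301476-42307990), the vasoconstrictor endothelin-1, was at 132 CPM in cirrhosis and 366 CPM in control (-1.47, -1.76 to -1.18). It had a UMI in 50 of 164 and 22 of 38 cells, and at 3000 UMIs per cell in 13.8% and 41.7%. Without carriers it was at 121 and 667 CPM, a log2 ratio of -2.47. LSEC-gated cells held little Edn1, at 7.64 and 8.46 CPM. Npr3 (chr15:11839896-11907287) was at 92.1 CPM in cirrhosis and 230.1 CPM in control (-1.32, -1.68 to -0.96), in 52 and 24 cells. Ednrb (chr14:103814625-103844402), the endothelin B receptor, was at 2308 CPM in cirrhosis and 1306 CPM in control (0.82, 0.70 to 0.95), and was thus abundant in the large-vessel cells of both libraries. In LSEC-gated cells it was at 1538 and 106 CPM, a log2 ratio of 3.86, one of the 5 lowest differences between the ratio in large-vessel and in LSEC-gated cells. Nos3, endothelial nitric oxide synthase, was at 162 CPM in cirrhosis and 113 CPM in control, and Ece1, which activates endothelin, at 447 CPM in cirrhosis and 479 CPM in control.

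Of 11 measured elastic fibre and wall genes 1 was over 2-fold higher and 2 lower, with a median of -0.12. Mgp (chr6:136872435-136875823) was at 130.5 CPM in cirrhosis and 411 CPM in control (-1.66, -1.93 to -1.37), in 24 and 11 cells, and at 118 and 663 CPM without carriers. One control barcode held 50.3% of its control UMIs, and without it the log2 ratio was -0.71 (-1.06 to -0.35), under 2-fold. With the LSEC gate at 0.1% the ratio turned to 0.16. Eln was at 150.1 CPM in cirrhosis and 204 CPM in control (-0.44, -0.79 to -0.09), or at log2 -1.14 without carriers, Fbln2 at 556 CPM in cirrhosis and 460.2 CPM in control (0.27, 0.05 to 0.50), or log2 -0.13 without carriers, and Sparc, a collagen-binding matricellular protein, at 1838 CPM in cirrhosis and 927 CPM in control (0.99, 0.84 to 1.14). Tgfbi, at 12.6 CPM in cirrhosis and 68.1 CPM in control, had 100% of its control UMIs in carriers, and Sparcl1 is described with the subsets. In the basement membrane list 2 of 9 were over 2-fold higher and none lower, with a median of 0.64 and of 0.66 without carriers, and 7 of 9 above 0. Col4a1, a chain of type IV collagen, was at 598 CPM in cirrhosis and 279 CPM in control (1.10, 0.83 to 1.38), and its partner Col4a2 at 298 CPM in cirrhosis and 131 CPM in control (1.18, 0.79 to 1.60). Nid1, nidogen, and Hspg2, perlecan, were at 284 CPM in cirrhosis and 176 CPM in control (0.69, 0.34 to 1.05), and at 366 CPM in cirrhosis and 242 CPM in control (0.60, 0.30 to 0.91). Col18a1, the precursor of endostatin, was at 37.4 CPM in cirrhosis and 21.1 CPM in control, with an interval that holds 0. Lama4, Lama5, Lamb2 and Lamc1 complete the measured members, with Lama4, a laminin chain, at 182 CPM in cirrhosis and 195 CPM in control (-0.10, -0.44 to 0.26).

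Junction genes were above 0 in 11 of 11 measured members, 5 of them with an interval above 0 and none over 2-fold. Among them Pecam1, Cdh5 and Gja5 are rule genes, whose levels chose the cells. The median was 0.28, or 0.09 without carriers, against 0.01 and -0.01 over all genes at 20 CPM or more. Jam2, a junctional adhesion molecule, was at 931 CPM in cirrhosis and 659.8 CPM in control (0.50, 0.32 to 0.68), Cldn5, the claudin of endothelial tight junctions, at 936 CPM in cirrhosis and 773 CPM in control (0.28, 0.11 to 0.45) and Gja1, connexin 43, at 54.7 CPM in cirrhosis and 54 CPM in control (0.02, -0.64 to 0.73). Without carriers Gja1 and Gja5 were at -0.48 and -0.08. Cdh5, VE-cadherin, is a rule gene and was at 922 CPM in cirrhosis and 693 CPM in control.

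Immediate-early genes, which encode AP-1 factors and their companions and respond within minutes to stimuli that include tissue dissociation, were lower in cirrhosis. Of 15 of 16 measured, 11 were over 2-fold lower and none higher, and all 15 were below 0, with a median of -1.66 (-1.77 without carriers, with 12 over 2-fold lower). Fos (chr12:85473890-85477273) was at 854 CPM in cirrhosis and 3327 CPM in control (-1.96, -2.06 to -1.86), Jun at 1046 CPM in cirrhosis and 3151 CPM in control (-1.59, -1.69 to -1.49) and Egr1 at 557 CPM in cirrhosis and 1890.2 CPM in control (-1.76, -1.89 to -1.63). Fosb was at 323 CPM in cirrhosis and 1430.0 CPM in control (-2.15, -2.31 to -1.99), Atf3, a stress-responsive factor, at 73.4 CPM in cirrhosis and 524 CPM in control (-2.83, -3.14 to -2.53) and Ier3 at 84.2 CPM in cirrhosis and 493 CPM in control (-2.55, -2.85 to -2.26). A Fos UMI was seen at 3000 UMIs per cell in 71.9% of cirrhosis and 91.7% of control members, and in 32.3% and 73.8% of T or NK barcodes, a difference of the same direction outside the endothelium. In LSEC-gated cells the list's median was -2.20, and Fos was at 267 and 2259.8 CPM. Among large-vessel cells without carriers the median was -1.77 in those with an Nrg1 UMI and -1.78 in those without. Each group was 1 preparation, so preparation and group cannot be told apart.

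Since these genes were all lower in cirrhosis, the 250 bases before their starts were searched in RefSeq promoters of GRCm38.p6 for the cyclic AMP response element TGACGTCA on both strands, and for the CArG box, the site of serum response factor. Egr1, Ier2 and Myc of the list had no promoter window there and were not searched. Of the 13 genes with one, 2 held TGACGTCA (15.4%, against 478 of 27025 genes, 1.77%) and 1 a CArG box (7.69%, against 1.62%). The 3 with a match are shown because they carry the letters searched, in capitals, 5' to 3' on the strand of the gene. Btg2 (chr1:134079156-134079405, minus strand, with TGACGTCA), an antiproliferative gene, was at 421 CPM in cirrhosis and 1207 CPM in control (-1.52, -1.68 to -1.36). Dusp1 (chr17:26508473-26508722, minus strand, with TGACGTCA), a phosphatase of MAP kinases, was at 948 CPM in cirrhosis and 1822 CPM in control (-0.94, -1.06 to -0.82). Zfp36 (chr7:28379229-28379478, minus strand, with a CArG box), which destabilizes AU-rich messages, was at 253 CPM in cirrhosis and 822 CPM in control (-1.70, -1.89 to -1.50). A match is a run of letters and not a shown site, and the other 10 windows do not hold these letters.
Btg2: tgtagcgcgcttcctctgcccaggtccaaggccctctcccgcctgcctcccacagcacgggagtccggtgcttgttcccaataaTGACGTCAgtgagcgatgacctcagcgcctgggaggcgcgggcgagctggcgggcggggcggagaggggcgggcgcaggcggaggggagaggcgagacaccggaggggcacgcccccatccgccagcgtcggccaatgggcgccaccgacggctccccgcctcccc
Dusp1: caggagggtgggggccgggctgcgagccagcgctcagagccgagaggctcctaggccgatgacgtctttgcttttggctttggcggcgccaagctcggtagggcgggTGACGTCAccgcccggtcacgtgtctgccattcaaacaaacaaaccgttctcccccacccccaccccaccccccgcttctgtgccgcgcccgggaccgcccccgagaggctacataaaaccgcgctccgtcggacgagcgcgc
Zfp36: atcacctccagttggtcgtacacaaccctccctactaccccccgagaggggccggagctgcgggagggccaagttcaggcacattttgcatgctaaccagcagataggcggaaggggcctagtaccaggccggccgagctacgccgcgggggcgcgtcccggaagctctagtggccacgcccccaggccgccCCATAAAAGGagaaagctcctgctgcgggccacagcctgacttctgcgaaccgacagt

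Interferon-stimulated genes were higher in part. Of 17 measured, 4 were over 2-fold higher and 1 lower, with a median of 0.49, and without carriers 9 were higher and none lower, with a median of 1.17. Over all genes without carriers, 5.58% of 6864 were over 2-fold higher and 5.42% lower. Ifit3, an antiviral protein that binds viral RNA complexes, was at 115 CPM in cirrhosis and 25.8 CPM in control (2.16, 1.30 to 3.18), and Rtp4, a chaperone induced by interferon, at 132 CPM in cirrhosis and 42.3 CPM in control (1.64, 0.95 to 2.42). Xaf1 was at 93.5 CPM in cirrhosis and 42.3 CPM in control (1.15, 0.45 to 1.93), and Ifitm3, which restricts viral entry, at 2314 CPM in cirrhosis and 1578 CPM in control (0.55, 0.44 to 0.67). Irf7, the main inducer of type I interferons, was at 113 CPM in cirrhosis and 93.9 CPM in control (0.27, -0.22 to 0.79) and at log2 1.32 without carriers. Ifit2 went the other way, at 35.1 CPM in cirrhosis and 75.1 CPM in control, with 46.9% of its control UMIs in 1 barcode, and at log2 -0.50 without carriers. In LSEC-gated cells the median of the list was 0.89. The MHC class I pathway had no member over 2-fold among 8 and a median of -0.38, with H2-K1 at 1429 CPM in cirrhosis and 2256 CPM in control (-0.66, -0.76 to -0.55). H2-K1 and H2-D1 are close copies and may share reads. The 5 measured class II genes were all below 0, but carriers held 97.8% and 96.9% of the UMIs of Cd74, the invariant chain, which was at 41.2 and 117 CPM without them.

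Anticoagulant and adhesion genes differed singly. In the coagulation list 1 of 9 was over 2-fold higher, Thbd, thrombomodulin, which turns thrombin to the activation of protein C, at 500.3 CPM in cirrhosis and 178 CPM in control (1.49, 1.15 to 1.84) and in 145 and 28 cells. Vwf was at 1194 CPM in cirrhosis and 688 CPM in control (0.80, 0.62 to 0.98), a difference that was 0.30 on the log2 scale without carriers. Plat, tissue plasminogen activator, was at 67.8 CPM in cirrhosis and 101 CPM in control (-0.57, -1.07 to -0.05), and the list's median was 0.18. Of 9 leukocyte adhesion genes 1 was over 2-fold higher and 2 lower, with a median of -0.12. Selp, P-selectin, was at 66.9 CPM in cirrhosis and 21.1 CPM in control (1.66, 0.70 to 2.82), Sele, E-selectin, at 14 CPM in cirrhosis and 39.9 CPM in control (-1.51, -2.41 to -0.56) and Vcam1, an integrin ligand, at 102 CPM in cirrhosis and 139 CPM in control (-0.44). Alcam, at 51 CPM in cirrhosis and 171 CPM in control, had 98.2% and 100% of its UMIs in carriers. Chemokines and cytokines had 2 of 8 over 2-fold lower and a median of -0.17, with Cxcl1, which attracts neutrophils, at 5.61 CPM in cirrhosis and 44.6 CPM in control, or 3.82 and 4.51 CPM without carriers, and Cxcl9 at 23.8 CPM in cirrhosis and 56.4 CPM in control from 51 and 24 UMIs, which turned to 0.41 with the LSEC gate at 0.1%. Flow-responsive genes had 1 of 5 over 2-fold higher, Thbd, and a median of 0.27. Their factors Klf2 and Klf4 were lower, at 1700.2 CPM in cirrhosis and 2336 CPM in control (-0.46, -0.56 to -0.36), and at 632 CPM in cirrhosis and 956 CPM in control (-0.60, -0.76 to -0.43).

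Markers of continuous capillaries, which LSECs of the cirrhotic liver held at higher levels, were already present in the large-vessel cells of control livers. In control, 8 of 11 were over 2-fold above LSEC-gated cells, with a median log2 ratio of 2.20, and in cirrhosis 7 of 11, with a median of 1.05. Ly6a, the surface antigen Sca-1, was at 4949 CPM in cirrhosis and 2968 CPM in control large-vessel cells, against 1519 and 262 CPM in LSEC-gated cells, log2 ratios of 0.74 and 2.54 for cirrhosis over control. Cd34, a sialomucin of continuous endothelium, was at 352 CPM in cirrhosis and 174 CPM in control large-vessel cells, against 179.7 and 21.3 CPM, with a ratio of 1.02 in large-vessel cells that was 0.65 without carriers. Plvap, the protein of endothelial diaphragms, was at 815 CPM in cirrhosis and 655 CPM in control large-vessel cells, against 324 and 159 CPM, with a ratio of 0.32 in large-vessel cells that was -0.05 without carriers. Cirrhosis over control, the list had 2 of 11 over 2-fold higher and 1 lower in large-vessel cells, and a median of 0.46 against 1.03 in LSEC-gated cells. Ly6c1 was the widest, at 976 CPM in cirrhosis and 188 CPM in control large-vessel cells (2.38, 2.06 to 2.72) against 213 and 3.98 CPM, and Ly6 genes are near-identical neighbours whose reads may be shared. It had a UMI in 159 of 164 cirrhosis and 15 of 38 control members. Cav1, the main protein of caveolae, was lower, at 72.5 CPM in cirrhosis and 188 CPM in control (-1.37, -1.77 to -0.97), with 58.8% of control UMIs in 1 barcode, and it turned to 2.43 with the LSEC gate at 0.1%.

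**Figure D3:**
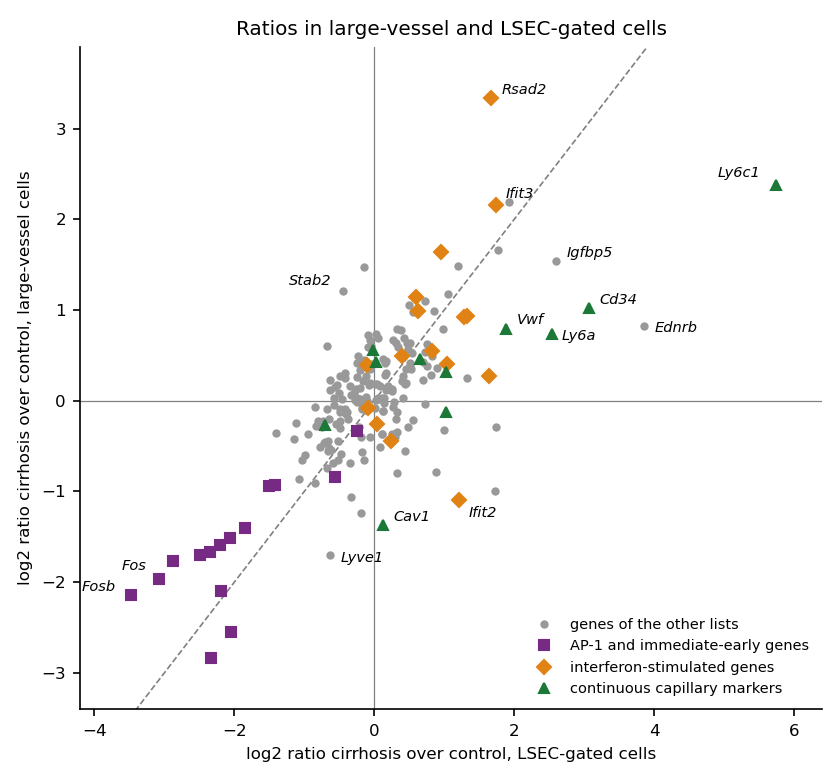
Log2 ratio of cirrhosis over control in large-vessel cells (vertical axis) against that in LSEC-gated cells (horizontal axis) for list genes with a mean of 20 CPM in both classes, with the line of equal ratios dashed. Immediate-early genes (purple squares) lie below 0 on both axes, and Ednrb, Ly6a, Cd34 and Ly6c1 lie right of the dashed line, with larger ratios in LSEC-gated cells.

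Genes of LSEC identity stayed low in the large-vessel cells, over 2-fold below LSEC-gated cells in 15 of 16 members in cirrhosis and 16 of 16 in control, as the gate on 4 of them requires in part. Cirrhosis over control, 1 of 16 was over 2-fold higher and 1 lower, with a median of -0.11 against -0.56 in LSEC-gated cells. Stab2, a hyaluronan receptor and a gene of the gate, was at 411 CPM in cirrhosis and 178 CPM in control (1.21, 0.87 to 1.56) in large-vessel cells, whereas the LSEC-gated ratio was -0.44; with no LSEC gate the ratio of the barcodes found was -0.46. Lyve1, the other hyaluronan receptor, was at 70.6 CPM in cirrhosis and 230.1 CPM in control (-1.70, -2.08 to -1.32), and at 3000 UMIs per barcode this ratio turned to 0.41. Gata4, the transcription factor that directs LSEC identity, was at 145 CPM in cirrhosis and 91.6 CPM in control (0.67, 0.18 to 1.19), and Maf at 614 CPM in cirrhosis and 465 CPM in control (0.40, 0.19 to 0.63). Of 10 genes of the central vein list 4 reached 20 CPM, and Thbd and Selp were over 2-fold higher, with a median of 1.06. Without carriers 2 of 5 measured genes of this list were over 2-fold higher and 2 lower, with a median of 0.31. The difference between the ratios in the 2 classes was among the 5 lowest for Pi16, Ly6c1, Dcn, Ednrb and Ifit2, and among the 5 highest for Akap12, Ccl5, Ighm, AW112010 and Cyp26b1, an enzyme that degrades retinoic acid. Ighm is one of the B cell markers, which summed to 103 CPM in cirrhosis and 134 CPM in control members. Without carriers this sum was 6.87 and 4.51 CPM, and in LSEC-gated cells it was 33.6 and 149 CPM. Cyp26b1 was at 300.2 CPM in cirrhosis and 119.8 CPM in control large-vessel cells (1.33, 0.91 to 1.77), against 544 and 756 CPM in LSEC-gated cells, and with no LSEC gate the ratio turned to -0.42.

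Transcription factors of endothelium had 2 of 12 over 2-fold higher and none lower, with a median of 0.18. Ets1 was at 735 CPM in cirrhosis and 352 CPM in control (1.06, 0.82 to 1.31), or log2 0.92 without carriers, and Nr2f2, the venous factor COUP-TFII, at 705 CPM in cirrhosis and 622 CPM in control (0.18, -0.01 to 0.37), or log2 -0.11 without carriers. Nr2f1, its relative, was at 32.7 CPM in cirrhosis and 11.7 CPM in control from 70 and 5 UMIs, and turned to -0.17 with no LSEC gate. Igfbp5, a binding protein of insulin-like growth factors, was at 1458 CPM in cirrhosis and 502 CPM in control (1.54, 1.34 to 1.74), in 123 and 16 cells, against 167 and 27.7 CPM in LSEC-gated cells, and was the 1 of 5 measured members over 2-fold higher. Igfbp6 was the 1 over 2-fold lower, with all 37 control UMIs in 1 barcode. In the VEGF, angiopoietin and sprouting list 1 of 12 was over 2-fold higher and 2 lower, with a median of 0.27. Esm1, endocan, a marker of tip cells, was at 75.3 CPM in cirrhosis and 16.4 CPM in control from 23 and 2 cells, and Vegfa at 25.7 CPM in cirrhosis and 58.7 CPM in control, where the log2 ratio turned to 0.95 at 3000 UMIs per barcode and was -0.56 without carriers. Kdr and Tie1, receptors of VEGF and of the angiopoietin system, were at 524 CPM in cirrhosis and 425 CPM in control (0.30, 0.07 to 0.54), and at 352 CPM in cirrhosis and 218 CPM in control (0.69, 0.37 to 1.01).

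Of the remaining lists, TGF-beta and BMP genes had 1 of 17 over 2-fold lower, Bmp4 at 14.5 CPM in cirrhosis and 49.3 CPM in control, and a median of 0.04. Without carriers none of 16 measured was over 2-fold in either direction, with a median of -0.17. Heat shock genes had 2 of 11 lower, Hspa1a at 21 CPM in cirrhosis and 49.3 CPM in control and Hspa1b at 10.3 CPM in cirrhosis and 37.6 CPM in control, near-identical genes that may share reads, with a median of -0.57. S100, annexin and cytoskeletal genes had 1 of 12 lower, S100a6 at 168 CPM in cirrhosis and 352 CPM in control with 58.7% of control UMIs in 1 barcode and 58 and 410.3 CPM without carriers, and a median of -0.21, where that of LSEC-gated cells was 0.37. Vim, vimentin, was at 953 CPM in cirrhosis and 1190.5 CPM in control large-vessel cells against 593 and 298 CPM in LSEC-gated cells. Glycolytic genes had none of 13 over 2-fold and a median of 0.22, with Gapdh at 611 CPM in cirrhosis and 453 CPM in control. Fatty acid genes had none of 5 and a median of 0.25 (-0.10 without carriers). Fabp4, which binds fatty acids, was at 2838 CPM in cirrhosis and 1836 CPM in control (0.63, 0.52 to 0.74). Of 10 cell cycle genes only Stmn1 and Pcna were measured, at 60.8 CPM in cirrhosis and 35.2 CPM in control and at 30.9 CPM in cirrhosis and 39.9 CPM in control, and Mki67 had no UMI in control members. Among genes of the reporter, the green fluorescent protein was at 1884 CPM in cirrhosis and 2566 CPM in control and tdTomato at 18.2 CPM in cirrhosis and 37.6 CPM in control, with 94.9% and 100% of tdTomato UMIs in carriers.

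**Figure D4:**
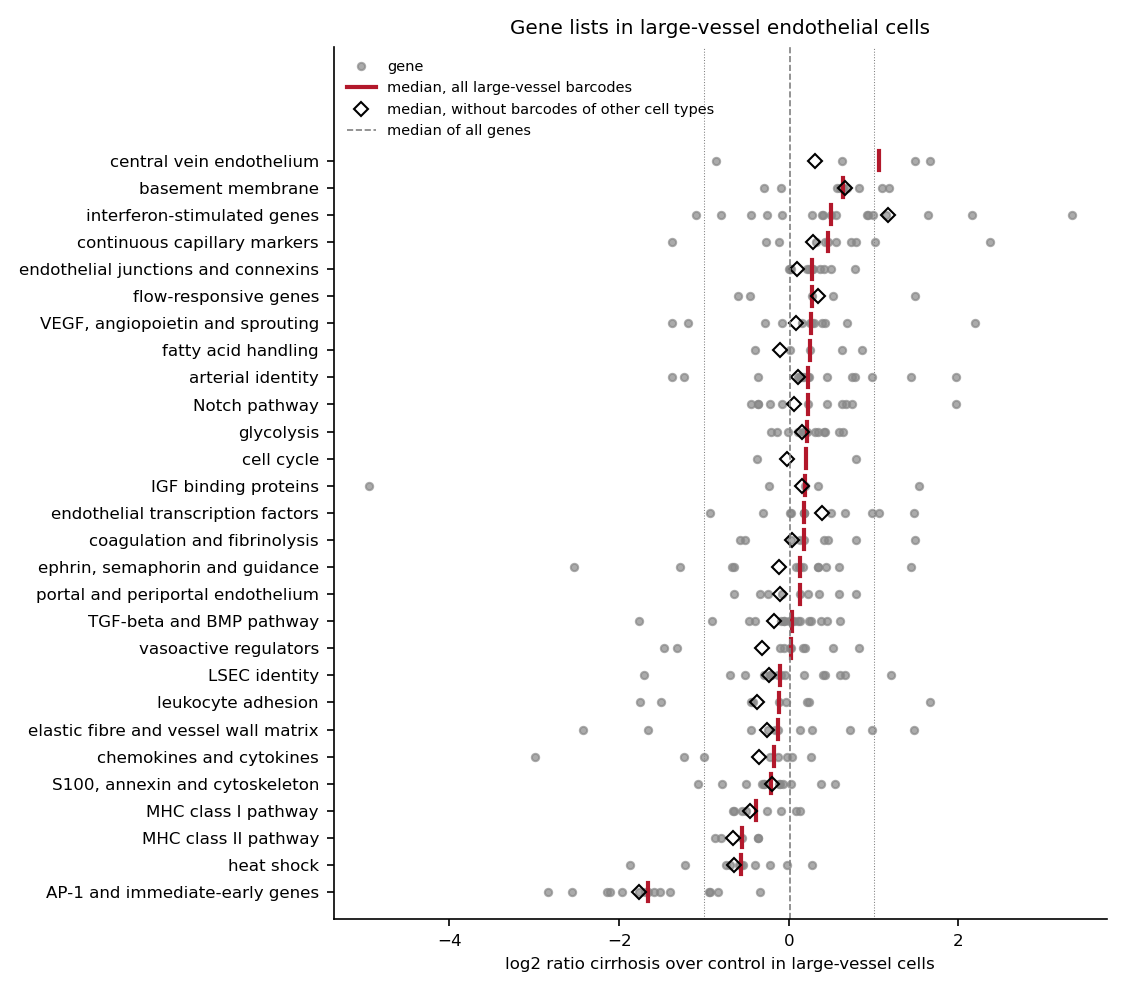
Log2 ratio of cirrhosis over control in large-vessel cells for each measured gene (grey) of 28 lists, with the list's median over all members (red bar) and without carriers (open diamond), the median of all genes (dashed) and 2-fold in either direction (dotted). Immediate-early genes have the lowest median, and the interferon list has the widest gap between bar and diamond above 0 after the central vein list.

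Nrg1 is a gene of the rule, so a split of the members by it is a description, which was chosen after its values were seen, and cells without it were kept through the other 3 rule genes. Without carriers, 65 cirrhosis cells had an Nrg1 UMI and 63 had none, with median depths of 10596 and 9583 UMIs, and in control 18 had one and 10 had none, with 8115.5 and 7331.5 UMIs. In cirrhosis, cells with an Nrg1 UMI held Edn1 at 204 CPM and cells without at 23.2 CPM, and Mgp at 212 and 6.63 CPM. They also held more Cst3, cystatin C, a protease inhibitor, at 3461 and 1229 CPM, more Atp13a3, a polyamine transporter, at 961 and 272 CPM, and more Vwf, at 1802 and 950.2 CPM. Of the 65 cells with Nrg1, 27 had Edn1, out of 34 with Edn1 in all.

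Some genes were higher in the cells without an Nrg1 UMI. In cirrhosis these included genes seen in most of the 63 cells. Efnb2 was at 204 CPM with and 318 CPM without an Nrg1 UMI (58 cells), and Dll4 at 167 and 270 CPM (48 cells). Stab2, a gene of the gate, was at 322 and 493 CPM (52 cells). The genes that follow were each seen in a minority of these cells. In cirrhosis, Igfbp3 was at 29.7 CPM in cells with an Nrg1 UMI and at 274 CPM in those without, in 12 of those 63 cells. Of the 17 cells with Igfbp3, 16 had Gja5, as did 91 of all 128 cells. Gja5 is a gene of the rule through which cells without Nrg1 could be kept, so this overlap is a description only. Esm1 was at 8.48 and 199 CPM, in 2 of 65 and 12 of 63 cells. Rbp7, a retinol binding protein of capillary and arterial endothelium, was at 24 and 126 CPM, in 9 and 7 cells, and Gja1 at 12.7 and 76.3 CPM. Sparcl1, a matricellular protein, had no UMI in cells with Nrg1 and was at 114 CPM in those without, all in 4 cells. Rbp7 had 104 UMIs in cirrhosis members and none in control members, a ratio of 6.90 with 3 counts as the floor of the control library. That value covers counting error only. Few cirrhosis cells held the UMIs, and the small number of control members can miss such cells, so it sets no lower limit to a difference between the groups.

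In control cells, Igfbp3 was at 13.9 CPM with and 511 CPM without an Nrg1 UMI, Cav1 at 6.97 and 639 CPM, and Atp13a3 at 711 and 345 CPM. Cst3 was at 3539 and 3411 CPM and Vwf at 1143 and 1149.9 CPM, so neither differed as in cirrhosis. Edn1 was at 704 and 601 CPM, so both kinds of control cells held it. Mgp was at 237 and 1444 CPM, but 88 of the 113 Mgp UMIs in control cells without Nrg1 were in 1 barcode, and without it they held 419 CPM. Ntn4 was at 1512 and 422 CPM. These control values rest on few cells: among the 10 without Nrg1, 1 cell held Igfbp3, 3 held Cav1, 5 held Mgp and 6 held Edn1. Between the libraries, Edn1 and Npr3 were lower in cirrhosis in both subsets. In cells with an Nrg1 UMI they were at 204 CPM in cirrhosis and 704 CPM in control for Edn1 and at 163 and 425 CPM for Npr3. In cells without one, Edn1 was at 23.2 CPM in cirrhosis and 601 CPM in control, and Npr3 at 84.6 and 230.0 CPM.

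**Figure D5:**
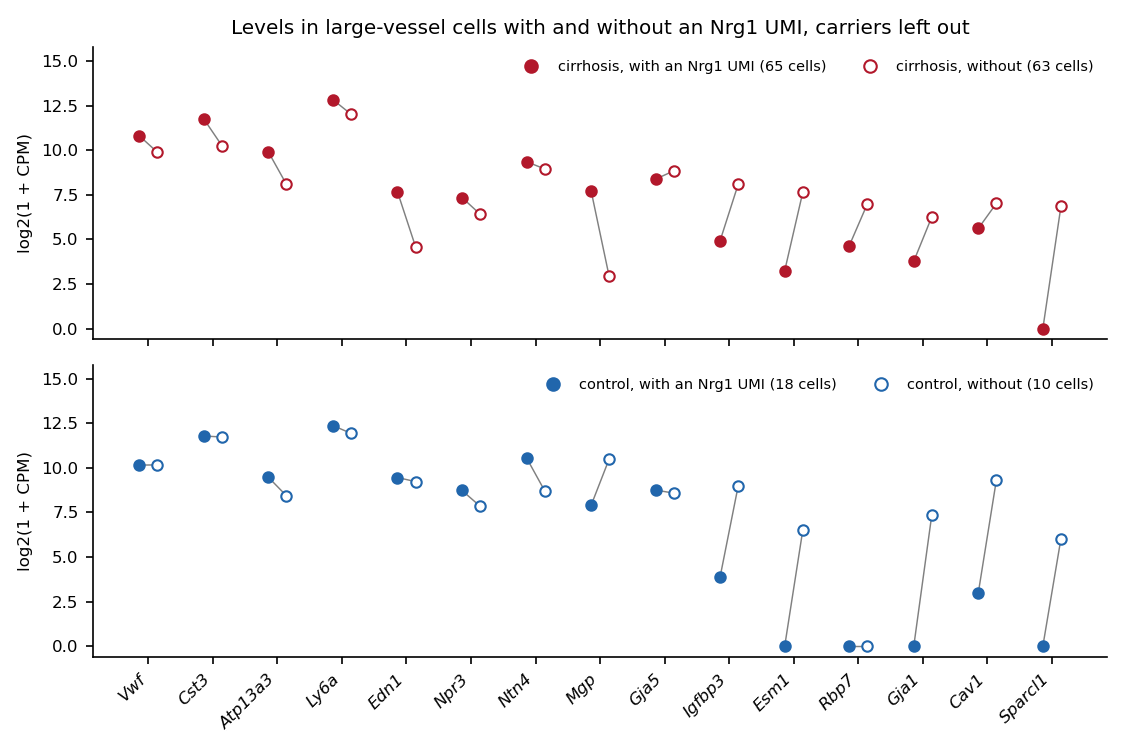
Summed levels on a log2(1 + CPM) axis of 15 genes in large-vessel cells with (filled) and without (open) an Nrg1 UMI, cirrhosis above control, carriers left out. In cirrhosis Edn1 and Mgp are higher with Nrg1, and Igfbp3, Esm1, Gja1 and Sparcl1 higher without it, while in control Edn1 is level and most Mgp of the cells without Nrg1 comes from 1 barcode.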

How the data were processed

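Single-cell RNA was measured in 2 libraries of sorted liver endothelial cells, and the deposited tables hold UMI counts per gene and barcode. Livers were digested by collagenase perfusion, live GFP-positive cells (SYTOX Red-negative) were sorted, and libraries used 10x Genomics v3 chemistry, per the labels' protocols. Counting used Cell Ranger and mm10, per the submitters' processing notes; annotation, strand and barcode filter: not given in the sources used here. Gene positions are from GENCODE M21 on GRCm38, in which 30464 of 31057 symbols were found.

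The members and gene lists were chosen with earlier results of these data known. Counts were summed over cells, scaled to CPM and compared as log2 ratios with exact conditional 95% intervals, since 1 library per group allows no test. Genes called needed a mean of 50 CPM, list members 20 CPM, and a UMI in both libraries, and called means over 2-fold. LSEC-gated cells passed the quality and endothelial gates and lay at or above the limit for LSEC genes, and T or NK barcodes had 5 or more UMIs of their markers and no UMI of the endothelial genes. The text names the rule genes and markers, the 10 highest and 10 lowest ratios, up to 3 genes per list with the largest ratios, the 5 highest and 5 lowest differences from LSEC-gated cells and the 12 genes furthest above them. Other genes were chosen after their values were seen. Median depth per member was 10740.5 UMIs in cirrhosis and 8924.5 in control. Doublets were kept, and scored against simulated doublets as an alternative. The computation was tested on simulated data. Python 3.11.15, numpy 2.4.6, scipy 1.17.1, pandas 2.3.3 and scikit-learn 1.9.0 were used.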

Additional observations from a re-analysis of the deposited data

Results flagged for a closer look

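For 2 genes with a mean of at least 50 CPM in both classes, the ratio of cirrhosis over control was over 2-fold in opposite directions in large-vessel cells and in LSEC-gated cells, and this difference was not tested. Ccl5 had a log2 ratio of 2.02 in large-vessel cells, at 152 CPM in cirrhosis and 37.6 CPM in control, and of -2.04 in LSEC-gated cells, at 21.1 and 86.5 CPM. Ifit2 had a log2 ratio of -1.10 in large-vessel cells, at 35.1 CPM in cirrhosis and 75.1 CPM in control, and of 1.20 in LSEC-gated cells, at 79.4 and 34.4 CPM. Without carriers of other cell types' markers the ratios in large-vessel cells were 0.76 for Ccl5 and -0.50 for Ifit2.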

How the results depend on the processing

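The share of endothelial barcodes was higher in cirrhosis under all 9 alternatives run, with a ratio of shares of 3.83 in the report and between 1.95 (no LSEC gate) and 5.44 (LSEC gate at 0.1%). The shares in cirrhosis and control were 1.12% and 0.206% with the LSEC gate at 0.1%, 2.39% and 0.594% with barcodes thinned to 3000 UMIs, and 10.7% and 5.50% with no LSEC gate. Without carriers the cirrhosis share was 2.93%. Genes over 2-fold higher and lower numbered 302 and 316 with the gate at 0.1%, which left 8 control members, 298 and 402 after thinning, which left 21, 231 and 285 at a mean of 20 CPM, and 800 and 1783 with no minimum. With no LSEC gate 53 were higher. Of genes over 2-fold, C3 turned to 2.83 and Apoa2 to -0.10 without carriers, and under 2-fold Fbln2, Dll4, Efnb2, Nr2f2, Plvap, Gja1 and Gja5 changed sign there too. With the gate at 0.1%, C3 turned to 0.50, Cav1 to 2.43, Cxcl9 to 0.41 and Mgp to 0.16, and with the rule without Vegfc C3 turned to 0.080. After thinning, C3 turned to 0.48, Lyve1 to 0.41 and Vegfa to 0.95. With no LSEC gate, Cxcl10 turned to -0.58, Cyp26b1 to -0.42, Epha4 to 0.27, Ifit2 to 0.56, Kit to -1.22, Nr2f1 to -0.17 and Stab2 to -0.46. The cause was not tested. Beyond the turned genes over 2-fold, named genes left their interval in 68 of 127 cases with no LSEC gate and 53 of 110 with the gate at 0.1%. They did so in 51 of 106 after thinning and 40 of 117 without carriers. These counts include changes of sign under 2-fold, such as that of Fbln2 without carriers. Medians of 11, 8, 10 and 4 of 28 lists moved by over 0.3 in these settings, in the same order. The median of interferon genes ranged from 0.07 (gate at 0.1%) to 1.17 (without carriers). Without the control barcode with most Mgp, the log2 ratio of Mgp was -0.71. Leaving out carriers or that barcode and dropping the LSEC gate were chosen after seeing the data. No paired analysis was possible because each group is 1 library. Depth limits the control values, where a count of 3 in all members is 7.04 CPM.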
